A study of Mus musculus with 12 samples.

Results

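The 8 genes described here encode proteins of the muscle fibre membrane, the sarcolemma, or a protease that acts close to it, and mutations in each of them other than Utrn are a known cause of muscle disease: Lama2, Dag1, Dmd, Utrn, Sgca, Sgcb, Cav3 and Capn3. Every probe set that the platform annotation assigns to 1 of these symbols and to no other was taken, which gave 14 probe sets for 8 of the 8251 genes that the array names singly. All 14 passed the filter on dim signal, 13 of them with all 12 arrays above the floor, and they belong to the 7310 genes measured.

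Dysferlin, the protein whose gene is mutated in the mutant mice, sits in the sarcolemma and helps to reseal its tears. Its amount in these mice was not measured here. The dystrophin complex has a different task: it ties the actin cytoskeleton through the membrane to the laminin of the basement membrane, so that the membrane withstands contraction. Dystroglycan is the receptor for laminin in this chain, the sarcoglycans stabilise it in the membrane, and utrophin is the relative of dystrophin at the neuromuscular junction. Caveolin-3 shapes the caveolae of muscle and is a known binding partner of dysferlin, and calpain-3 is a muscle protease anchored to titin.

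Skeletal muscle of mice aged 3 weeks was profiled as total RNA on 12 single-channel arrays. The group called Dysf_null was the line C57BL/10-SJL.Dysf, labelled Dysf -/-, in which from general knowledge the SJL mutation of dysferlin was bred onto C57BL/10, and the group called Control was the C57BL/10 strain. From each genotype 2 muscles were used, labelled QF and TA, which from general knowledge are quadriceps femoris, a proximal thigh muscle, and tibialis anterior, a distal muscle of the lower leg. Each of the 4 groups had 3 arrays, numbered as replicates 1 to 3. The labels do not say whether replicates came from separate mice, so p-values measure only the spread between these arrays.

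All values below are log2 of the quantile normalized intensity of a probe set, and a difference is between such values. Levels of different probe sets are not compared with each other, because probes differ in brightness for the same amount of RNA. Adjusted p-values come from limma, adjusted by the Benjamini-Hochberg method over all 10331 probe sets tested, and a call is an adjusted p under 0.05. Standard errors (SE) and 95% intervals come from the same fit.

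Of 10 muscle fibre markers on the array, 9 passed the filter on dim signal. These 9, among them fast myosins, skeletal actin and creatine kinase, were above the floor on all 12 arrays. No probe set was named Dysf, so the genotype labels were not checked against the mutated gene. The QF arrays with replicate number 2 differed from the other 10 in both genotypes, with median correlations to the other arrays of 0.876 and 0.866 against 0.926 to 0.959 for the rest, and results that rest on them are also given without them.

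None of the 14 probe sets passed the test in any of the 6 comparisons made: between genotypes in QF, in TA and averaged over both, between TA and QF within Control and within Dysf_null, and the interaction (how far the genotype difference in TA exceeds the one in QF). In QF 0 of 14 were called and 0 had an unadjusted limma p under 0.05, where 0.455% of all probe sets were called and 6.77% had such a p. In TA both counts were again 0, beside 0.407% and 4.82% of all, and for the average they were 0 beside 1.09% and 7.63%. For the interaction 0 were called beside 0.0678% of all, and 0 had such a p beside 3.05%. With shares of calls this low, a count of 0 among 14 is no departure from the background. The intervals say more about size: for the average, 13 of 14 lay wholly within 2-fold in either direction, as did 11 of 14 in QF and 12 of 14 in TA.

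**Figure D1:**
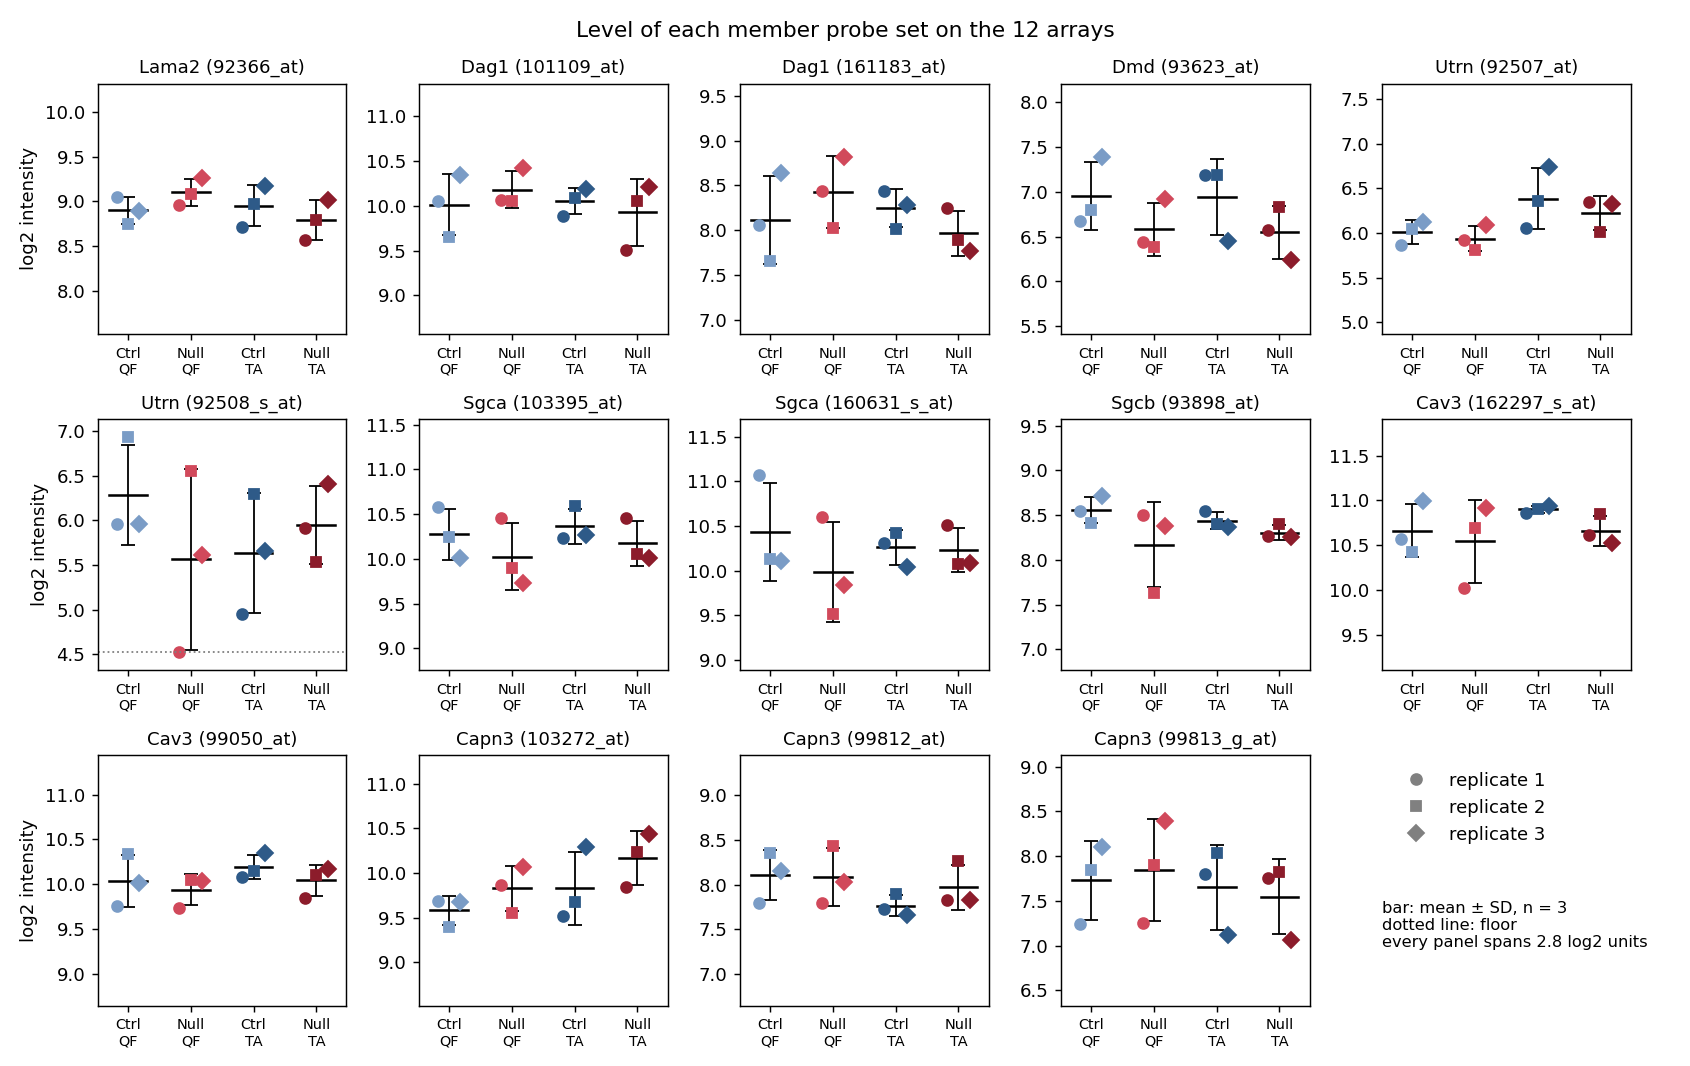
Log2 intensity (vertical axis) of each of the 14 probe sets on the 12 arrays, by group (horizontal axis), with points for single arrays, shaped by replicate number, and bars for the mean ± SD (n = 3); the dotted line marks the floor. In 13 of the 14 panels the Dysf_null and Control arrays of a muscle overlap in both muscles, and the exception is Cav3 (162297_s_at) in TA.

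Lama2 encodes the alpha chain of the main laminin of the muscle basement membrane, whose loss causes congenital muscular dystrophy. Its probe set read 9.05, 8.75 and 8.90 on Control QF arrays 1, 2 and 3, and 8.96, 9.08 and 9.26 on the Dysf_null QF arrays. In TA the values were 8.72, 8.97 and 9.17 in Control and 8.57, 8.80 and 9.01 in Dysf_null. The genotypes overlapped in both muscles. The difference was 0.20 ± 0.17 (SE) in QF and −0.16 ± 0.17 in TA, and averaged 0.02 ± 0.12 with a 95% interval of −0.24 to 0.28. That interval bounds the average difference between 0.846-fold and 1.22-fold. In TA all 3 same-numbered pairs of arrays were lower in Dysf_null, by similar amounts (−0.15, −0.18 and −0.16), whereas in QF 2 of 3 pairs were higher. The difference between the muscles in this respect did not pass (interaction −0.36 ± 0.24, adjusted p = 1.00).

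Dag1 encodes dystroglycan, the laminin receptor at the core of the complex, and was measured by 2 probe sets. The first (101109_at) read 10.05, 9.65 and 10.34 on Control QF arrays and 10.07, 10.05 and 10.42 on Dysf_null QF arrays. Its TA values were 9.89, 10.09 and 10.19 in Control and 9.51, 10.06 and 10.21 in Dysf_null. The groups overlapped throughout, and the average difference was 0.02 ± 0.15 (interval −0.30 to 0.34).

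The other Dag1 probe set (161183_at) gave 8.06, 7.66 and 8.64 in Control QF and 8.44, 8.02 and 8.82 in Dysf_null QF, and then 8.44, 8.02 and 8.28 in Control TA and 8.25, 7.89 and 7.77 in Dysf_null TA. Taken pair by pair, Dysf_null was higher in 3 of 3 QF pairs (0.38, 0.37 and 0.19) and lower in 3 of 3 TA pairs (−0.19, −0.13 and −0.51). The opposite signs leave an average of 0.02 ± 0.19, and the interaction was −0.59 ± 0.38 (interval −1.42 to 0.24, adjusted p = 1.00). Both probe sets had the same sign in all 6 comparisons, with the interaction at −0.29 ± 0.29 for 101109_at, and neither passed.

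Dmd encodes dystrophin, the rod-shaped protein whose loss causes Duchenne muscular dystrophy and which the mdx mouse lacks. In QF its probe set read 6.67, 6.80 and 7.39 in Control and 6.44, 6.38 and 6.92 in Dysf_null. In TA it read 7.18, 7.19 and 6.45 in Control against 6.58, 6.83 and 6.23 in Dysf_null. The ranges of the genotypes overlapped in both muscles. Within each of the 6 same-numbered pairs the Dysf_null array was the lower one, by 0.22 to 0.61. The group difference was −0.37 ± 0.33 in QF and −0.39 ± 0.33 in TA. Averaged over both muscles it was −0.38 ± 0.23, which is 0.768-fold with an interval of 0.542-fold to 1.09-fold (adjusted p = 0.89). The 2 muscles gave nearly the same value, with an interaction of −0.03 ± 0.46. When same-numbered arrays of a muscle were fitted as pairs (the replicate block), the average kept its size with a smaller SE (0.14) and still did not pass (adjusted p = 0.223).

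Utrn encodes utrophin, which can take the place of dystrophin when it is raised in dystrophin-deficient muscle. Its probe set 92507_at lay between 5.81 and 6.74 over the 12 arrays, with means of 6.01 ± 0.13 (SD, n = 3) in Control QF, 5.94 ± 0.14 in Dysf_null QF, 6.38 ± 0.34 in Control TA and 6.23 ± 0.19 in Dysf_null TA. The average genotype difference was −0.12 ± 0.21 (interval −0.57 to 0.34). An increase of more than 1.27-fold lies outside the interval of this probe set.

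The second Utrn probe set (92508_s_at) had the widest spread of the 14. It read 5.96, 6.93 and 5.96 in Control QF and 4.53, 6.55 and 5.61 in Dysf_null QF, where the first array was at the floor. In TA it read 4.95, 6.30 and 5.66 in Control and 5.91, 5.53 and 6.40 in Dysf_null. Its average difference was −0.20 ± 0.37 and its interval reached from 0.498-fold to 1.51-fold, so it limits the change only loosely. Without Dysf_null QF array 1 the QF difference moved from −0.72 to −0.20 and the average from −0.20 to 0.05. Over the 12 arrays the 2 Utrn probe sets were nearly unrelated (Pearson r = 0.08, a description over arrays of 4 groups).

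Sgca encodes alpha-sarcoglycan, a transmembrane protein of the complex lost in a form of limb-girdle muscular dystrophy. Probe set 103395_at gave 10.57, 10.24 and 10.01 in Control QF, 10.45, 9.90 and 9.73 in Dysf_null QF, 10.23, 10.59 and 10.27 in Control TA, and 10.46, 10.05 and 10.01 in Dysf_null TA. Of the 6 pairs 5 were lower in Dysf_null, with TA pair 1 the exception, and the groups overlapped. The average difference was −0.22 ± 0.15 (interval −0.54 to 0.10, adjusted p = 0.934). Its other probe set (160631_s_at) followed it over the arrays (r = 0.84) and averaged −0.24 ± 0.20, with −0.45 ± 0.29 in QF and −0.03 ± 0.29 in TA.

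Sgcb encodes beta-sarcoglycan, which assembles with the other sarcoglycans into a tight subcomplex. Its probe set read 8.54, 8.42 and 8.71 in Control QF and 8.50, 7.63 and 8.38 in Dysf_null QF. The TA arrays were closer together, at 8.55, 8.40 and 8.37 in Control and 8.26, 8.40 and 8.25 in Dysf_null. Dysf_null QF array 2 was the lowest of the 12, below the next lowest at 8.25, and is 1 of the 2 arrays that stood apart. All 6 pairs were lower in Dysf_null, TA pair 2 by almost nothing (−0.0025). The difference was −0.39 ± 0.22 in QF, −0.13 ± 0.22 in TA and −0.26 ± 0.15 on average (interval −0.59 to 0.07, adjusted p = 0.865). Without both QF arrays numbered 2 the QF value shrank to −0.19 ± 0.15 and the average to −0.16 ± 0.10.

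Cav3 encodes caveolin-3, the muscle member of the family that forms caveolae, and it binds dysferlin and is mutated in a limb-girdle muscular dystrophy and in rippling muscle disease. Probe set 162297_s_at read 10.57, 10.42 and 10.99 in Control QF and 10.02, 10.69 and 10.91 in Dysf_null QF, a full overlap. In TA it read 10.86, 10.90 and 10.94 in Control, a spread of only 0.04 (SD), and 10.61, 10.85 and 10.52 in Dysf_null, all below the lowest Control array. This was the 1 case among the 14 in which the genotypes did not overlap in TA, and there were 0 in QF. Over all probe sets the genotypes did not overlap for 13.8% in TA and 7.53% in QF, so 1 of 14 is no more than the background. The TA difference was −0.24 ± 0.21 (adjusted p = 1.00), and the average −0.18 ± 0.15 (interval −0.50 to 0.14).

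The second Cav3 probe set (99050_at) was the steadiest of the 14 by range, from 9.74 to 10.34, and its average was −0.12 ± 0.12 (interval −0.37 to 0.13). Both were negative in both muscles, though the probe sets followed each other only in part (r = 0.42). Cav3 is the 1 gene of the 8 that shares chromosome 6 with Dysf, with 164 protein-coding genes between them in the order of the reference mouse genome GRCm38.p6. How far SJL-derived DNA reaches around Dysf in this line was not tested.

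Capn3 encodes calpain-3, the muscle protease whose loss causes a limb-girdle muscular dystrophy. It was measured by 3 probe sets that did not move together. Probe set 103272_at read 9.68, 9.40 and 9.67 in Control QF and 9.86, 9.56 and 10.06 in Dysf_null QF. In TA it read 9.52, 9.67 and 10.29 in Control and 9.84, 10.23 and 10.43 in Dysf_null. The Dysf_null array was higher in 6 of 6 same-numbered pairs, by 0.14 to 0.56, while the ranges of the groups overlapped. The difference was 0.24 ± 0.21 in QF, 0.34 ± 0.21 in TA and 0.29 ± 0.15 on average, or 1.22-fold with an interval of 0.975-fold to 1.54-fold (adjusted p = 0.769). With the replicate block it came closest of the 14 to a call (average 0.29 ± 0.07, adjusted p = 0.0504).

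The other 2 Capn3 probe sets, designed from the same transcript record, averaged 0.09 ± 0.16 (99812_at) and 0.01 ± 0.25 (99813_g_at), and across arrays they ran against 103272_at (r = −0.34 and −0.42) and with each other (r = 0.55). Probe set 99813_g_at ranged from 7.06 to 8.39 and 99812_at from 7.66 to 8.43, with the genotypes overlapping in both muscles. The size of the Capn3 difference therefore rests on 1 of its 3 probe sets.

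**Figure D2:**
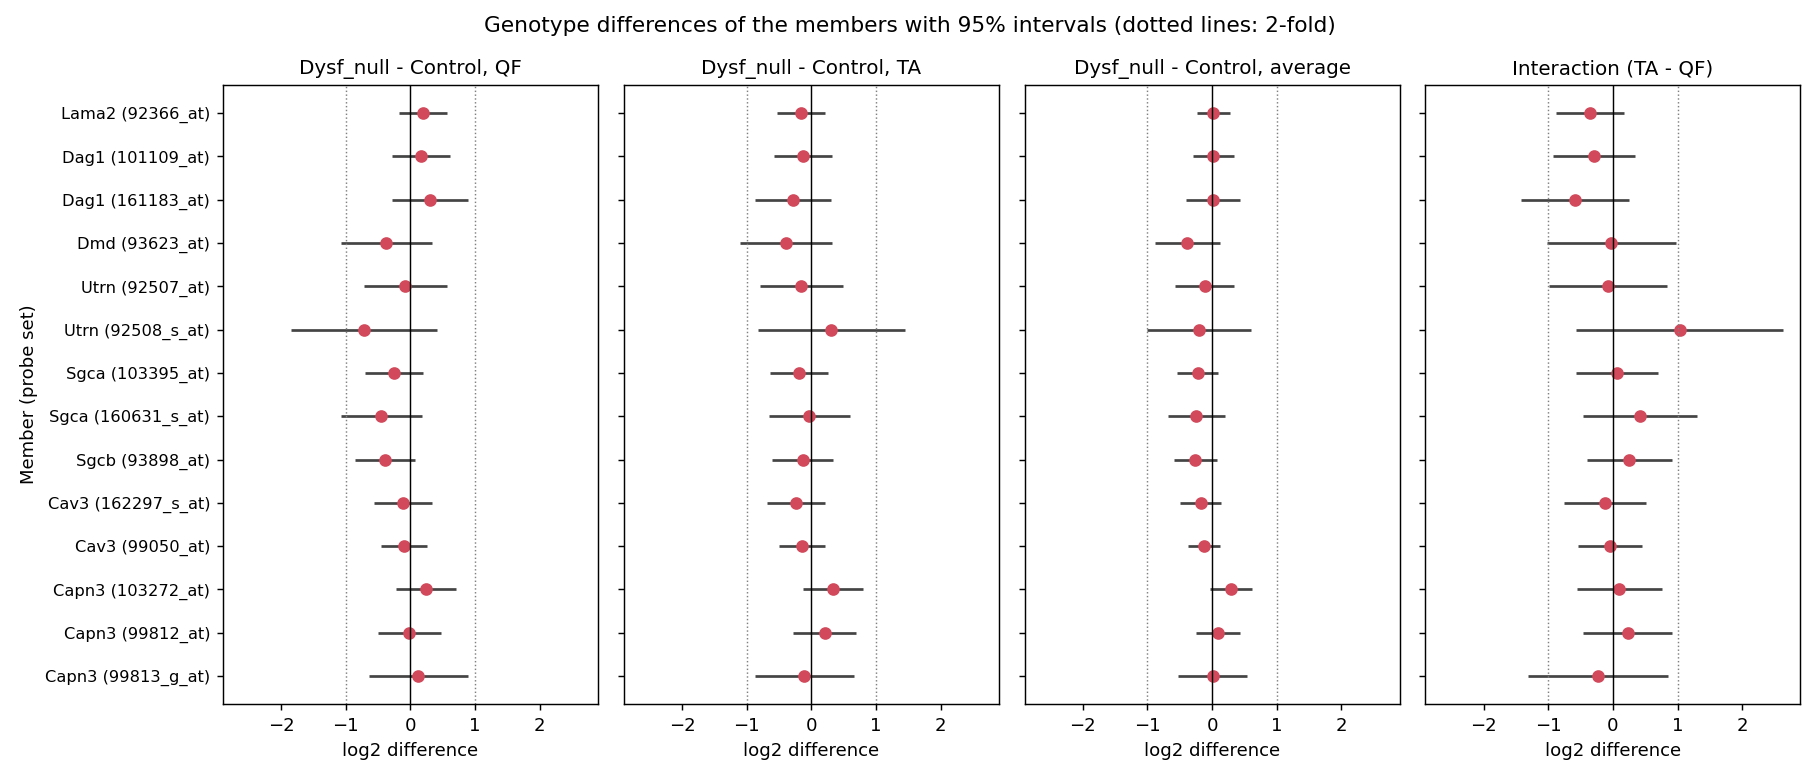
Genotype difference of each probe set (horizontal axis, log2) with its 95% interval from limma, in QF, in TA, averaged over both and as the interaction; dotted lines mark 2-fold. Every interval for QF, TA, the average and the interaction includes 0.

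The pairs add a view that the overlap of groups hides, since same-numbered arrays of both genotypes lay high or low together within a muscle. This was clear in QF and weak in TA. All 6 pairs pointed the same way for 3 of the 14 probe sets: Dmd and Sgcb lower in Dysf_null, and Capn3 (103272_at) higher. This count was chosen after its values were seen. Over all 10331 probe sets 9.65% had all 6 pairs pointing one way. Nearest to them were Sgca (103395_at) and both Cav3 probe sets, lower in 5 of 6 pairs each.

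Fitting that pairing as a replicate block added no call among the 14 but lowered several p-values. With the block 0 of 14 were called in each comparison, beside 2.64% of all probe sets in QF, 1.54% in TA, 4.59% for the average and 0.31% for the interaction. Averaged over both muscles, 5 of 14 had an unadjusted limma p under 0.05 with the block against 0 without, where the share among all probe sets was 16% with the block and 7.63% without. With the block the counts were 4 in QF beside 15.3% of all, 1 in TA beside 11.9% and 3 for the interaction beside 9.65%. The adjusted p for the average was 0.0504 for Capn3 (103272_at), 0.158 for Sgca (160631_s_at), 0.223 for Dmd and 0.269 for Sgcb. In QF the smallest was 0.0829, for Sgca (160631_s_at). Among all probe sets the block raised the number called for the average from 113 to 474, so it sharpened the test widely without taking any of the 14 past the threshold. The 14 stayed uncalled when both QF arrays numbered 2 were also left out, with a smallest adjusted p of 0.0914 for the average.

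**Figure D3:**
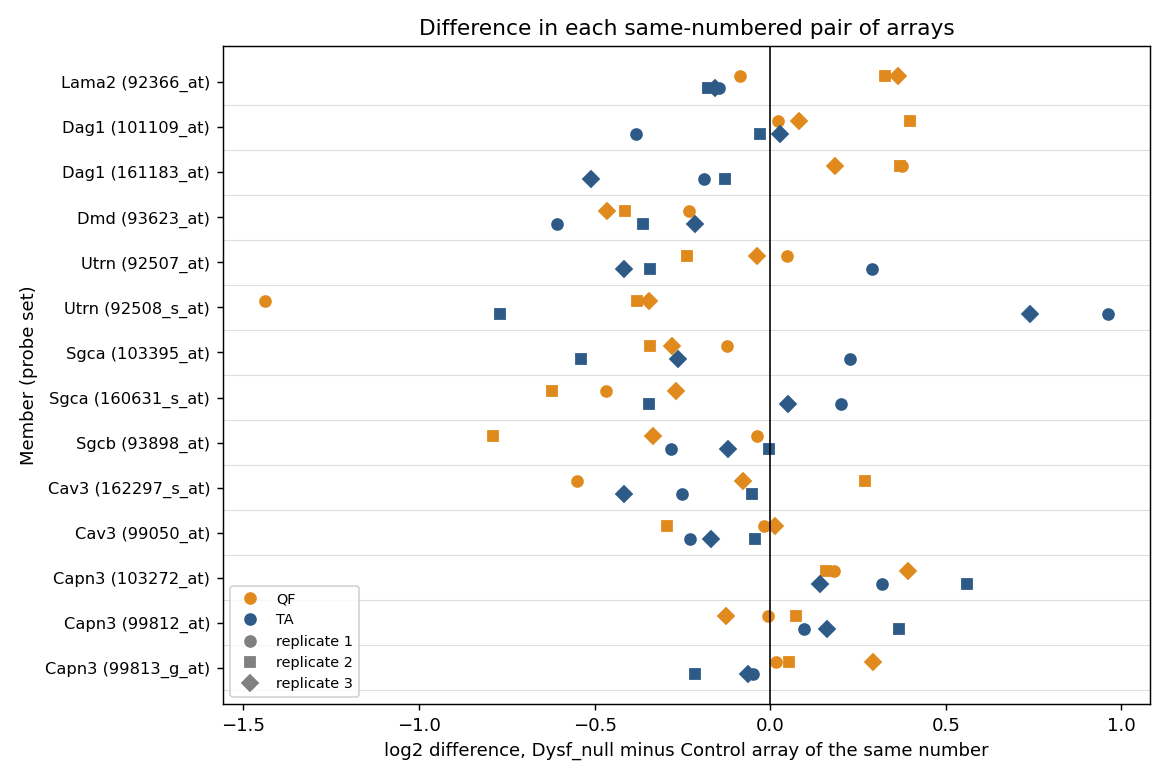
Difference between the Dysf_null and the Control array of the same replicate number (horizontal axis, log2), with 3 pairs from QF and 3 from TA for each probe set. All 6 points lie left of 0 for Dmd and Sgcb and right of 0 for Capn3 (103272_at).

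Taken as a list, 8 of the 14 probe sets had an average difference below 0, with a median of −0.12, and among all probe sets 52.42% were below 0 with a median of −0.01. In TA 11 of 14 were below 0 (median −0.14) and in QF 9 of 14 (median −0.09). These counts describe the list and were not tested.

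Between the muscles, too, none of the 14 differed by the test. In Control mice 0 were called beside 0.736% of all probe sets, and in Dysf_null mice 0 beside 0.3%, with 0 unadjusted p under 0.05 in either, where 9.86% and 5.72% of all had one. The number of probe sets whose TA and QF arrays did not overlap was also 0 of 14 in both genotypes, beside 13.8% of all in Control and 10.2% in Dysf_null. The smallest p among the 14 within Dysf_null mice was that of Lama2 (TA minus QF −0.31 ± 0.17, adjusted p = 0.897), and within Control mice that of Capn3 (99812_at; −0.34 ± 0.22, adjusted p = 0.662). Ordered by group mean, 41 of 42 neighbouring groups of the same probe set overlapped, as did 95% of such neighbours among all probe sets. The highest and the lowest group did not overlap for 2 of the 14, beside 29.5% of all probe sets: Cav3 (99050_at), with Control TA highest and Dysf_null QF lowest, and Capn3 (103272_at), with Dysf_null TA highest and Control QF lowest.

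By Pearson correlation over the 12 arrays, each gene's brightest probe set was closest to genes with varied functions. The r is given as a description with no test, since arrays share groups and pairs. Each r was picked as one of the 2 largest over the probe sets of all other measured genes, so a high value alone shows little. Dmd was most like Sf3b1, a splicing factor (r = 0.911), and St13, a cochaperone (0.904). Capn3 (103272_at) was most like Col6a1, a collagen of the muscle matrix (0.894), and Eef1a1, a translation elongation factor (0.888). Cav3 was most like Slco5a1 (0.908) and Cnih2 (0.895), and Sgca most like Tpgs1 (0.931) and Gsg1 (0.918). For Sgcb the closest were Orc4, a subunit of the replication origin complex (0.938), and Ptbp2, a splicing regulator (0.937), but without both QF arrays numbered 2 these fell to 0.843 and 0.722. Utrn was closest to Ndufb5 (0.914) and Acsl4 (0.901), Dag1 to Sh2b1 (0.917) and Adcy9 (0.889), and Lama2 to Sf3b5 (0.891) and Ppa1 (0.873). None of the 16 genes was another of the 8.

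Genes that work beside these 8 were read from the same fit in 7 lists: other dystrophin complex genes, laminins, integrins and basement membrane, enzymes that glycosylate dystroglycan, caveolae, dysferlin partners and membrane repair, calpains, and other dystrophy, sarcomere and nuclear envelope genes. They held 104 genes, of which 68 were measured. In QF 3 rose and 0 fell, in TA 0 rose and 2 fell, and for the average 4 rose and 1 fell. By probe set, 3, 2 and 7 of 96 were called in these comparisons. Among all probe sets 0.455% were called in QF, 0.407% in TA and 1.09% for the average. The lists were chosen with earlier results of these data known, so the counts only describe them.

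The other genes of the dystrophin complex gave 0 calls, as the 8 did. Of the 13 listed, 7 were measured, with medians of 0.11 in QF, 0.00 in TA and −0.03 for the average. The value closest to a call was that of Sgce, epsilon-sarcoglycan, a relative of Sgca found in many tissues, at 0.48 on average (adjusted p = 0.161, and 0.0470 with the replicate block). Dtna, alpha-dystrobrevin, averaged −0.12 and −0.43 on its 2 probe sets, and Nos1, the nitric oxide synthase anchored to the complex, averaged −0.36 (adjusted p = 0.993). Of the enzymes that glycosylate dystroglycan, 5 of 15 were measured and 0 passed.

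Calls appeared among genes of the matrix and of membrane repair. Col6a3, a chain of the collagen VI that surrounds fibres and is mutated in Bethlem and Ullrich myopathy, rose by 0.81 in QF (adjusted p = 0.0394) and by 0.51 on average (0.0444). Anxa5, an annexin that binds membrane lipids in the presence of calcium, rose by 0.92 in QF (adjusted p = 0.00464) and by 0.75 on average (0.000717). Anxa1, an annexin known to associate with dysferlin, rose by 1.24 in QF (adjusted p = 0.0326) on 1 of its 3 probe sets (161703_f_at). On average it rose on 2 of the 3, by 0.81 on that probe set (0.0313) and by 0.61 on 93038_f_at (0.0178). Tuba1a, an alpha-tubulin, rose on average by 0.70 and 0.84 on its 2 probe sets (adjusted p = 0.0112 and 0.00656). Without both QF arrays numbered 2 the count in QF was 0 in place of 3, and for the average 5 rose in place of 4. Leaving out each of the 12 arrays in turn ended the QF call of Col6a3 in 10 cases, its average call in 10 and the QF call of Anxa1 in 10. The average calls of Anxa1 ended in 9 cases on 161703_f_at and in 4 on 93038_f_at. No array left out ended either call of Anxa5 or either average call of Tuba1a.

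The block widened this group and left the 8 outside it. In QF it took the count from 3 risen to 12, adding Col6a1, Col6a2, Cavin1, Cavin2, Cavin3, Anxa2, S100a10, Tuba1a and Capn6. For the average the count went from 4 risen and 1 fallen to 12 and 4. Over all probe sets the block also raised the number called, from 47 to 273 in QF and from 113 to 474 for the average. The widening was therefore not particular to these lists. Cavin3, a coat protein of caveolae, had an average difference of 0.67 (adjusted p = 0.0755, and 0.00646 with the block), while Cav3 was at −0.18 and −0.12. Capn6, a calpain without protease activity, averaged 0.63 on 97942_g_at (adjusted p = 0.602, and 0.0193 with the block). Its brightest probe set, 97943_at, averaged 0.14, and 97941_at, near the floor, averaged 0.33. In TA the block gave 3 risen and 4 fallen in place of 0 and 2, beside 159 in place of 42 called over all probe sets.

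In TA the 2 that fell were Cryab, a small heat shock protein that chaperones desmin, by 1.41 (adjusted p = 0.00046), and Fhl1, a LIM protein of the sarcomere, by 0.65 (0.0203). A second Cryab probe set (93279_at), near the floor, gave 0.06. The Fhl1 call was on 97498_at, and its second probe set (97500_g_at) gave −0.71 without a call (adjusted p = 0.285). Both genes were also higher in TA than in QF of Control mice, Cryab by 1.37 and Fhl1 by 1.73 on 97498_at. The comparisons share the Control TA arrays, so these values are not separate evidence. The Fhl1 call in TA was lost without 5 of the 12 arrays left out in turn (Control TA 1 and 3, and each Dysf_null TA array), with adjusted p up to 0.128, and without both QF arrays numbered 2 (0.0655), whereas the Cryab call was lost in none of these cases.

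**Figure D4:**
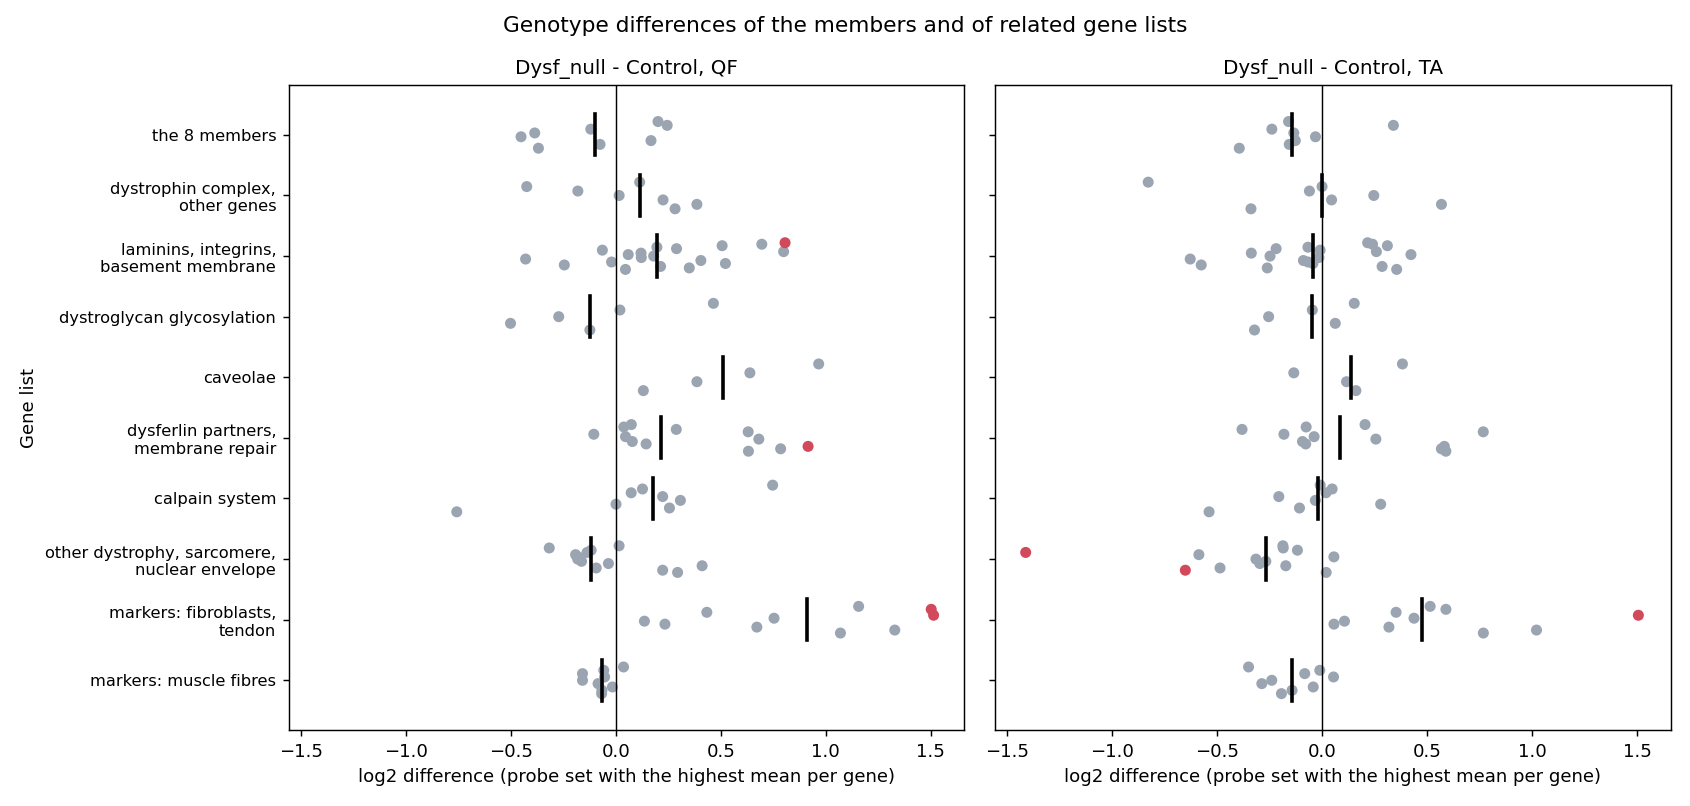
Genotype difference in QF and TA (horizontal axis, log2) of the 8 genes and of 7 related lists and 2 marker lists, with 1 point per gene from its brightest probe set, red for a limma adjusted p under 0.05 and black bars for list medians. The 8 genes lie between −0.45 and 0.34, with no red point, while fibroblast and tendon markers lie right of 0 in both muscles.

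Summed levels of cell type markers differed between the genotypes, and these values stand beside every genotype difference given above. The summed intensity of 9 muscle fibre markers was 126384 to 129089 in Control QF against 116595 to 124021 in Dysf_null QF, a change in the mean of −5.37%, and in TA it was 121801 to 132532 against 109793 to 119796, a change of −9.55%. The sum of 10 of 11 fibroblast and tendon markers was 62.8% higher in QF (17311 to 25608 against 29087 to 41562) and 44.1% higher in TA (22636 to 29437 against 30524 to 44363). Red cell markers (5 of 7) were higher by 47.5% and 82.4% and macrophage and monocyte markers (8 of 10) by 33.9% and 11.4%, with no overlap of genotypes in either muscle. Cd68, a macrophage surface and lysosome marker and the 1 gene of that list called in TA, went against the sum there and fell by 1.27 (adjusted p = 0.0104), a call it kept with the replicate block. The sum of 8 granulocyte markers went opposite ways, with −33.4% in QF and 97.7% in TA. Of the 8 granulocyte markers, 4 were above the floor on every array. In the other lists of this paragraph every measured marker was. In whole muscle, fewer fibres and less RNA per fibre cannot be told apart, and the part of cell makeup in the values of the 8 genes was not tested.

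Markers of embryonic and regenerating muscle (9 of 9 measured) overlapped between genotypes in both muscles, with summed intensities higher by 5.45% in QF and 8.91% in TA. Gene by gene, most went the other way: 3 of 9 were above 0 in QF (median −0.11) and 3 of 9 in TA (median −0.12). Endothelial and mural cell markers (12 of 12), fat cell markers (6 of 8), lymphocyte markers (4 of 8) and slow fibre markers (8 of 8) overlapped as well. Single genes of these lists called between genotypes were Thy1 (lymphocytes) in QF, at 1.19 (limma adjusted p = 0.0394), and Myl2 (slow fibres) on average, at 0.46 (0.0174). Of the measured lymphocyte markers 2 of 4 were above 0 in QF, and of the slow fibre markers 4 of 8 on average. Schwann cell and myelin markers (5 of 8) overlapped in QF and were higher by 28.3% without overlap in TA.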

How the data were processed

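The deposited values were probe set intensities on a linear scale, already scaled by the authors, since array means with 2% trimmed at each end were 200.1 to 200.2 on all arrays. The software used is not given in the sources used here. After 66 control probe sets were removed, 12422 were quantile normalized, values under the 25th percentile of all (intensity 23.025, log2 4.53, including 4 values of 0) were set to it, log2 was taken, and probe sets were kept if 3 or more arrays exceeded this floor, which left 10331. Precision is set by the number of arrays, with a median SE of 0.323 for 1 group against another.

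Group means were fitted to all 12 arrays with limma 3.58.1 in R 4.3.3 (two-sided tests, variances moderated along an intensity trend, 8 residual degrees of freedom). The fit was tested on simulated data with independent arrays, which did not cover the normalization, the floor, the filter or paired arrays. Python 3.11.15 with matplotlib 3.10.9 drew the figures. Probe sets were named from the platform annotation: 10833 of 12422 carried a single symbol, 396 carried several and 1193 were missing from it.

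Deviations from the group means were correlated between arrays of different groups over all kept probe sets. Same-numbered arrays of the 2 genotypes deviated together clearly in QF (r = 0.390, 0.711 and 0.660). In TA they did so only weakly (0.182, 0.114 and 0.231), with unlike-numbered arrays of the 2 genotypes at 0.011 or lower. The numbers were taken to pair arrays within a muscle, which is less certain in TA. Across muscles same-numbered arrays gave −0.142 to 0.123, and unlike-numbered arrays reached 0.268, so the TA values are not beyond that range.

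The genes and lists were chosen with earlier results of these data known. Named from the lists were genes with a called probe set, and up to 2 more each with the smallest p for the average and for TA minus QF in Control. For each of the 8 genes the 2 probe sets of other genes with the largest r were named. Alternatives were no quantile normalization, other floors and filters, log2(value + 16), no intensity trend, array weights, each muscle or genotype fitted alone, the replicate block, and leaving out arrays.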

Additional observations from a re-analysis of the deposited data

Results flagged for a closer look

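Cryab, a small heat shock protein of the list of other dystrophy genes and none of the 8, stood out because its genotype difference was not the same in the 2 muscles by the test of that difference itself. On probe set 162308_f_at the interaction was −1.27 (limma adjusted p = 0.0339), with a genotype difference of −0.14 in QF and −1.41 in TA. Its second probe set (93279_at) gave 0.32 (adjusted p = 1.00). Left out in turn, 10 of the 12 arrays ended the call of the interaction, all but Control TA 2 and Dysf_null TA 1, with adjusted p up to 0.139, and without both QF arrays numbered 2 it was −1.32 (adjusted p = 0.152). With the replicate block it remained called, and with array weights it was not called.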

How the results depend on the processing

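For the 8 genes, 84 results (14 probe sets in 6 comparisons) were recomputed under 23 to 25 alternatives each, which gave 2016 values. None was called, and 46 of the 84 kept their sign under every alternative run. The other 38 changed sign at least once, in 108 values, none of them called. Dmd (average −0.51 to −0.27), Sgcb (−0.34 to −0.12), both Sgca probe sets (−0.40 to −0.08 for 160631_s_at) and Capn3 103272_at (0.22 to 0.41) kept their sign throughout, whereas Lama2 and Dag1, near 0, did not. The smallest adjusted p over all alternatives was 0.0504, for Capn3 103272_at with the replicate block, and it was 0.0914 with the block and without both QF arrays numbered 2. The block changed no call among the 8 genes. The 2 alternatives that joined the block with another change were chosen after seeing the data. Over all probe sets the number called depended strongly on the setting: 0 to 273 in QF, 14 to 192 in TA, 56 to 474 for the average and 4 to 32 for the interaction, with the highest of the QF, average and interaction counts from the block and the lowest QF count from fitting each muscle alone. For TA minus QF the range was 21 to 147 in Control and 9 to 52 in Dysf_null. Among named genes of the related lists, 77 values became called, 109 were lost and 0 turned direction.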
